A study of Mus musculus with 8 samples.

Results

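The genes described here are the 170 genes whose transcripts were less abundant in the nuclei of the dilator muscle after pupil dilation, of 22873 genes counted in the mouse iris by single nucleus RNA sequencing (snRNAseq). Unique molecular identifiers (UMIs, each marking 1 captured RNA molecule) were summed over the dilator muscle nuclei of each library and expressed relative to 1000000 UMIs of all genes (CPM). A gene was taken as a member if it had at least 20 CPM in each of the 3 untreated libraries and if the higher of the 2 dilated libraries was at most 0.5 times the lowest untreated library. Of 7002 genes with at least 20 CPM in each untreated library, 170 met this rule (2.43%). A mirrored rule for genes more abundant after dilation was met by 133 genes. It asked for at least 20 CPM in each dilated library, with no minimum in the untreated libraries. The lower dilated library had to be at least 2 times the highest untreated library. These values chose the members, so that the difference between dilated and untreated dilator muscle is given as a description with no test. A model fit over all genes called 6.14% of 15395 genes lower and 7.2% higher in that contrast, from which nothing is read about the members. What the rule did not use is the constricted libraries and the nuclei of the 9 other cell types.

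The irises came from adult female albino mice of wild type genotype, with a part of the ciliary body, and several irises were pooled for each library. The paper does not give the gene or allele behind the albino coat, so that wild type need not hold for pigment genes such as Tyr. The 2 dilated libraries are from mice given hourly eye drops of phenylephrine, an alpha-adrenergic agonist, with cyclopentolate, a muscarinic antagonist, and kept in the dark. The 3 constricted libraries are from mice given pilocarpine, a muscarinic agonist, and kept in the light, and the 3 untreated libraries are from mice with no drops. The design does not separate the drugs from the lighting, which therefore cannot be told apart. Each library holds between 403 and 2567 dilator muscle nuclei with 1604121 to 10129055 summed UMIs. No member rests on fewer than 326 UMIs over the untreated libraries and 61 over the dilated libraries. The smallest of the 9 other cell types have as few as 12 nuclei in a library for endothelial cells (EC), 13 for leukocytes and 26 for sphincter 2. UMIs were not scaled for gene length, and RNA in nuclei holds introns, so that CPM values are compared between libraries and cell types and not between genes.

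Some cell barcodes occurred in more than 1 library, 195 barcodes in 400 of 34357 nuclei. Untreated replicate 1 and dilated replicate 1 shared 63 of them, and 59 of these nuclei carried the same cell type in both libraries. Without all such nuclei the rule found 170 genes, of which 167 were members. Leaving out an untreated or dilated library can only add genes under this rule, and without dilated replicate 1 there were 405. The dilator muscle nuclei of dilated replicate 1 had a median of 0.0633% mitochondrial transcripts and those of the 7 other libraries 0.0166 to 0.0328%. The median over the 7002 genes of the ratio of dilated to untreated CPM was 0.891 (log2 ratio -0.17), so that a gene at the median was already somewhat lower on this scale. The TMM scaling of edgeR, which sets library sizes so that most genes do not differ, brings that median to a log2 ratio of 0.03. On that scale 94 genes met the rule, all of them members, and 202 met the mirrored rule, which moves the lowered share of both sets together from 56.1 to 31.8%.

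The dilator is a sheet of contractile myoepithelium that develops from the anterior layer of the iris pigment epithelium (PE) and widens the pupil under sympathetic control, opposed by the ring of the sphincter, which contracts under parasympathetic control. Dilator cells, held to be of epithelial and neuroectodermal origin, express genes of melanin synthesis beside those of smooth muscle. From its lineage tracing, the paper proposes a model in which migratory neural crest cells gave rise to most progenitors of the dilator. Some members of the set are better known from neurons, where they act in vesicle release, synaptic adhesion and axon guidance. The dilator nuclei showed the markers of their cell type. Adra1a, the alpha-1A adrenergic receptor, had 507, 456 and 473 CPM in the 3 untreated libraries, 523, 358 and 238 in the 3 constricted libraries and 344 and 243 in the 2 dilated libraries. Mylk, the myosin light chain kinase, had 7842, 8389 and 8404 CPM untreated, 8046, 7088 and 5978 constricted and 6233 and 4703 dilated. Both were lower in the dilated than in the untreated libraries without meeting the rule. Otx2, a transcription factor among these markers, had 332, 338 and 347 CPM untreated, 338, 300 and 346 constricted and 545 and 414 dilated. Acta2, smooth muscle actin, had 954, 446 and 438 CPM untreated, 509, 812 and 859 constricted and 375 and 866 dilated. Otx2 was thus highest in the dilated libraries, and those of Acta2 lay on both sides of the untreated mean. The remaining dilator markers, Nos1 (nitric oxide synthase-1), Myh11 (myosin heavy chain-11) and Chrm2 (the M2 muscarinic receptor), were lower after dilation. Mean untreated and dilated CPM were 246.3 and 116.7 for Nos1, 1931 and 1193 for Myh11 and 629.8 and 252.9 for Chrm2. For each of them, every dilated library was below all untreated and constricted libraries. The summed level of the 7 dilator markers, most of it Mylk, was 12209 to 12656 CPM untreated, 10162 to 12426 constricted and 7779 to 9069 dilated. Of these markers, Myh11 and Acta2 are placed by the paper in the sphincter as well. The summed markers of the other cell types were far lower in these nuclei, at 73.3 to 90.4 CPM untreated and 66.1 to 69.2 dilated for the 6 sphincter markers. They were at 282 to 347 untreated and 215 to 238 dilated for the 4 markers of iris PE and ciliary body epithelium (CBE). No marker of another cell type was at 0 in all libraries, and the part of such RNA in the members' levels was not tested.

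Sequences of 3 promoters are shown because their genes carry the pigment, receptor and light-sensing parts of the set that the results below return to. They are the 250 bases upstream of the RefSeq start (GRCm38.p6), written 5′ to 3′ on the strand of the gene, with the match to a motif of E-box type in capitals. Tyr codes for tyrosinase, the enzyme of the first step of melanin synthesis (chr7:87424771-87493512, minus strand), and the stretch at chr7:87493513-87493762 holds the M-box letters TCATGTG, a motif bound by the pigment cell factor MITF. Npsr1 codes for the neuropeptide S receptor (chr9:24097996-24316398, plus strand), and its stretch at chr9:24097768-24098017 holds CACGTG. Gene bounds are those of the GENCODE vM21 annotation. For Npsr1 they begin before the RefSeq start, so that the end of its stretch lies inside them. Opn4 codes for melanopsin, the light-sensitive pigment of intrinsically photosensitive retinal ganglion cells that is also found in the rodent iris (chr14:34590618-34600142, minus strand), and its stretch at chr14:34600143-34600392 holds CATGTG.
Tyr: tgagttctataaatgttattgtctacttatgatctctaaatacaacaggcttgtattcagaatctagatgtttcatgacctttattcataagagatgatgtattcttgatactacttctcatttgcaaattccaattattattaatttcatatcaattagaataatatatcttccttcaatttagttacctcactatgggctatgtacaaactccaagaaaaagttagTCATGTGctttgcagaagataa
Npsr1: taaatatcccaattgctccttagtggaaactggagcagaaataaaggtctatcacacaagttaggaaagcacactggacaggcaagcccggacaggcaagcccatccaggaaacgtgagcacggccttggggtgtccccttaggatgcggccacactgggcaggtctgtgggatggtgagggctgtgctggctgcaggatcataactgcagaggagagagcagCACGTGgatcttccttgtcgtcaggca
Opn4: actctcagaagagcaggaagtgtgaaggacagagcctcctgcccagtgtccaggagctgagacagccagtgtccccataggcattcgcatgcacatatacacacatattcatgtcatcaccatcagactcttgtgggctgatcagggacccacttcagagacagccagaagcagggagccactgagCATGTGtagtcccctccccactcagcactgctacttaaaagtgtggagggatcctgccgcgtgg

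RefSeq windows of 300 bases, from 250 before to 50 after the start, were found for 118 of the 170 members and were searched on both strands beside all 27025 windows. Motifs are given by their letters, where N is any base, or by name. CACGTG was present in 11 members (9.32%) and in 7.24% of all windows, and CATGTG in 12 members (10.2%) and in 14.1% of all windows. TCATGTG, which contains CATGTG, was present in 1 member, Tyr, and in 3.74% of all windows. The core TGACG was present in 26 members (22.03%) and in 21.02% of all windows, and the full cyclic AMP response element TGACGTCA, which contains it, in 2 members (1.70%) and in 1.88% of all windows. The AP-1 site TGANTCA was present in 6 members (5.08%) and in 7.93% of all windows, the OTX site GGATTA in 6 members (5.08%) and in 7.16% of all windows, the CArG box of smooth muscle genes in 2 members (1.70%) and in 1.57% of all windows, and the EGR site GCGGGGGCG in 5 members (4.24%) and in 2.92% of all windows. Among the 5416 windows of genes that passed the minimum of 20 CPM, the shares were 10.0% for CACGTG, 7.92% for CATGTG, 1.99% for TCATGTG, 33.9% for TGACG and 3.51% for TGACGTCA. They were 4.32% for TGANTCA, 5.46% for GGATTA, 1.26% for the CArG box and 6.26% for GCGGGGGCG. The members' share was above that of all windows and below that of these genes for CACGTG, for the core TGACG and for the EGR site, and the reverse for CATGTG and for the AP-1 site. These are matches of letters in short windows and were not tested.

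Across the 170 members, the ratio of mean dilated to mean untreated CPM had a median of 0.342, so that the median member was 2.92-fold lower, with a range of 2.09-fold to 9.19-fold. Mean untreated levels ran from 21.4 to 2226 CPM with a median of 60.7, and 61 members had at least 100 CPM. Dilated replicate 2 was the lower of the 2 dilated libraries for 117 of the 170 members, as for 65.4% of the 7002 genes. Each untreated library stood close to the others, with a median coefficient of variation of 8.76%. The lowest ratio of the higher dilated to the lowest untreated library was 0.141, for the uncharacterised Gm36356, followed by Xrra1 at 0.189, Plk5 at 0.204, Kif28 at 0.213, Tbxas1 at 0.217, Emilin3 at 0.221, Cracr2a at 0.229, Il1rapl2 and Adarb2 at 0.234 and 0.234, and Tyr at 0.256. Near the limit of 0.5, the last members inside were Bcar1 at 0.497, Atp7b at 0.497, Gm20658 at 0.498, Zc3h6 at 0.499 and Phyh at 0.499, with no sharp edge to the set. The first genes outside were Fam69a at 0.500015, Hs1bp3 at 0.5015, Kctd8 at 0.502, Sort1 at 0.503 and Antxr1 at 0.505.

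**Figure D1:**
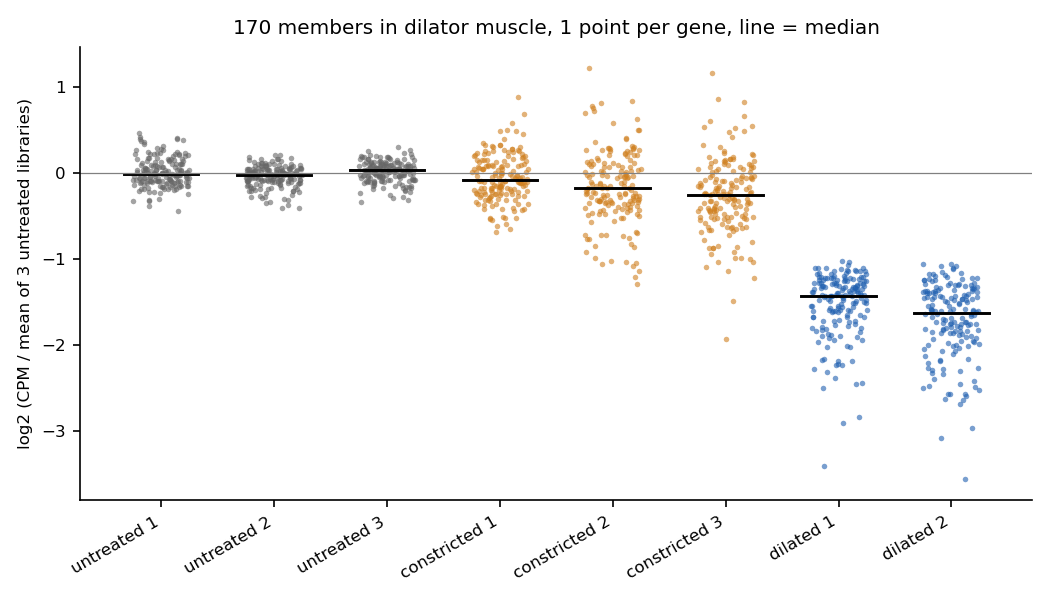
Each point is 1 of the 170 members, plotted as log2 of its CPM over the mean of the 3 untreated libraries (y axis) in each of the 8 libraries (x axis), with the median as a line. The medians as ratios are 0.982 to 1.02 in the untreated, 0.840 to 0.940 in the constricted and 0.372 and 0.322 in the dilated libraries.

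Genes of vesicle release and of synaptic scaffolds were among the members with the most UMIs. Unc13c (Munc13-3), which primes vesicles for release, had 1981, 2299 and 2398 CPM in the 3 untreated libraries, 1698, 2025 and 1434 in the 3 constricted libraries and 729.7 and 636 in the 2 dilated libraries, 3.26-fold lower in the dilated libraries. Synpr (synaptoporin, a membrane protein of synaptic vesicles) had 1381, 1506 and 1559 CPM in the 3 untreated libraries, 1247, 1763 and 1680.2 in the 3 constricted libraries and 505 and 495 in the 2 dilated libraries, 2.96-fold lower. The constricted libraries of Synpr overlapped with the untreated libraries, whereas 2 of the 3 constricted libraries of Unc13c were below all untreated ones. Sybu (syntabulin, which links presynaptic cargo to kinesin) had 223, 262 and 261 CPM untreated, 293, 298 and 269.8 constricted and 104 and 96.0 dilated. Sntg1 (a syntrophin scaffold) had 325, 346 and 389 CPM untreated, 332, 409 and 307 constricted and 121 and 99.0 dilated. In both, every dilated library was below every other library. Rab30, a Golgi GTPase, was 2.53-fold lower, and the calcium sensor Vsnl1 2.501-fold lower. Within the list of 49 regulated exocytosis genes, 24 had at least 20 CPM in each untreated library and 2 of these, Unc13c and Synpr, were members, whereas Cadps and Rab3b met the mirrored rule. Cadps, which like Unc13c acts in vesicle priming, had 297, 282 and 324 CPM untreated, 349.6, 241 and 359 constricted and 1095 and 1087 dilated, so that the 2 priming factors differed in direction. The median ratio of dilated to untreated over the 24 genes was 0.916. For this list and those below, the median over all 7002 genes at 20 CPM or more was 0.891, and 170 of these were members.

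Receptors and ion channels gave 13 members. Roles of this kind were assigned to members alone after their values were seen, so that no share over all genes stands beside their sizes. Npsr1 had 1587, 1817 and 1710.0 CPM in the 3 untreated libraries, 1362, 1306 and 796 in the 3 constricted libraries and 620.2 and 511 in the 2 dilated libraries, 3.01-fold lower after dilation, and its constricted libraries were all below its untreated libraries. Tacr3, the receptor of neurokinin B, had 426, 435 and 396 CPM untreated, 393, 391 and 311 constricted and 179 and 161 dilated. Tacr1, the receptor of substance P, had 122, 119.9 and 98.1 CPM untreated, 100.3, 102 and 55.2 constricted and 35.9 and 26.2 dilated. Dilated libraries of both were lowest, and those of Tacr1 were 3.65-fold lower than untreated. Gria4, an AMPA receptor subunit, had 207, 215 and 269 CPM untreated, 158, 194 and 197 constricted and 63.8 and 76.9 dilated. Grik2, a kainate receptor subunit, had 26.8, 25.2 and 26.6 CPM untreated, 21.9, 28.4 and 11.8 constricted and 7.997 and 6.61 dilated. These were 2 of the 6 genes at 20 CPM or more among 17 ionotropic glutamate receptor genes, with a median ratio of 0.771. Kcnj3 (GIRK1, an inwardly rectifying potassium channel) had 167, 212 and 213 CPM untreated, 154, 194 and 143 constricted and 73.3 and 80.8 dilated. It was the single member among 16 calcium and potassium channel genes at that level, and Cacna2d3 and Kcnd3 of the same list met the mirrored rule. Opn4 had 21.8, 27.0 and 23.7 CPM untreated, 36.0, 26.6 and 25.1 constricted and 8.69 and 4.41 dilated, 3.69-fold lower after dilation. Of 4357 untreated dilator nuclei, 365 held a UMI of Opn4 (8.38%, exact Clopper-Pearson 95% interval 7.57 to 9.24). The share was 9.39% of 3376 constricted (8.43 to 10.4) and 2.69% of 3873 dilated nuclei (2.20 to 3.24), where the intervals cover counting error only. These intervals pool the nuclei of all libraries of a condition. By library the shares were 8.19, 9.09 and 7.63% untreated, 10.7, 11.7 and 7.04% constricted and 3.23 and 1.61% dilated. The constricted shares and that of dilated replicate 2 lay outside the pooled intervals. After thinning of each nucleus to 1000 UMIs the pooled shares were 2.57, 3.01 and 0.745%, and in untreated leukocytes, which should lack the gene, the share was 1.55% before and 0.560% after that step. Median depths were 3026 to 5299 UMIs per nucleus in dilator muscle and 1590 to 3277 in leukocytes over the 8 libraries. In the dilated libraries 0 of 102 leukocytes held a UMI of Opn4 (exact upper bound 3.55%), and 0 of 73 EC did (exact upper bound 4.93%), so that the background there is bounded only loosely.

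The receptors that the drugs act on were not members. Of 13 muscarinic and adrenergic receptor genes in the files, 3 had at least 20 CPM, with a median ratio of dilated to untreated of 0.613. Chrm2, the M2 muscarinic receptor, had 675, 579 and 635 CPM untreated, 623, 538 and 325 constricted and 293 and 213 dilated, a ratio of 0.402 between the means, with the higher dilated library just above 0.5 times the lowest untreated one. Adra1b, the alpha-1B receptor, had 26.2, 29.1 and 30.1 CPM untreated, 32.7, 27.9 and 23.2 constricted and 43.6 and 42.9 dilated. No gene was a member among 26 smooth muscle contraction genes at 20 CPM or more, with a median ratio of 1.07, where Pdlim3 met the mirrored rule. The same held for 15 genes of nitric oxide and cyclic nucleotide signalling, with a median of 0.953 beside 0.891 over the 7002 genes. Among them, the phosphodiesterases Pde3b, Pde7b, Pde8a and Pde10a met the mirrored rule. The 6 eye field transcription factors had a median ratio of 1.02 and no member. Pax6, the best known of them, had 1339.7, 1538 and 1639 CPM untreated, 1672, 1170.0 and 1636 constricted and 1343 and 1501 dilated.

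Of genes of the melanosome and of melanin synthesis, 23 had at least 20 CPM and 3 were members, Tyr, Rab38 and Gpr143. Tyr had 1170.1, 1189 and 1284 CPM in the 3 untreated libraries, 998, 1589 and 976 in the 3 constricted libraries and 299 and 253 in the 2 dilated libraries, 4.40-fold lower. A UMI of Tyr was present in 85.8% of untreated, 83.0% of constricted and 50.9% of dilated dilator nuclei, and at 1000 UMIs per nucleus in 61.3, 56.5 and 21.9%, beside 8.70% of untreated leukocytes at the same depth. Rab38, a GTPase that carries melanogenic enzymes to melanosomes, had 166, 172 and 204 CPM untreated, 176, 183 and 153 constricted and 48.3 and 35.7 dilated, 4.30-fold lower. Gpr143, the melanosomal receptor affected in ocular albinism, had 45.5, 55.2 and 55.8 CPM untreated, 35.8, 43.4 and 36.5 constricted and 18.3 and 19.4 dilated. Ankrd27 (VARP), an effector of Rab38 that is in no list, had 116, 107 and 109 CPM untreated, 114, 108 and 108 constricted and 45.5 and 45.1 dilated. Other genes of the list were higher in the dilated libraries, where Dct, the next enzyme of the pathway, had 5591, 5031 and 5038 CPM untreated, 5859, 5356 and 4422 constricted and 7463 and 7952 dilated. Gpnmb, a melanosomal glycoprotein that met the mirrored rule, had 1843, 1944 and 2052 CPM untreated, 1859, 2172 and 2420.5 constricted and 7086 and 7431 dilated. The median ratio over the 23 genes was 0.814, beside 0.891 over the 7002 genes.

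Adhesion and axon guidance genes gave 13 members with a median ratio of dilated to untreated of 0.320. Nlgn1 (neuroligin 1, a postsynaptic adhesion protein) had 741, 739 and 902 CPM in the 3 untreated libraries, 593, 731 and 595 in the 3 constricted libraries and 334 and 263 in the 2 dilated libraries, 2.66-fold lower. Il1rapl2, a synaptic adhesion receptor, had 358, 392 and 395 CPM untreated, 343, 311 and 243 constricted and 83.7 and 77.5 dilated, 4.74-fold lower and the largest fold of the group. Ntng1 (netrin G1) had 203, 291 and 299 CPM untreated, 212, 284 and 254 constricted and 72.1 and 79.1 dilated. Tenm2 (teneurin 2) had 285, 242 and 215 CPM untreated, 269, 244 and 194 constricted and 80.4 and 61.5 dilated. Cadm2, a cell adhesion molecule of the immunoglobulin family, had 193, 127 and 146 CPM untreated, 130.5, 151 and 108 constricted and 61.3 and 39.7 dilated. These were 5 of 28 synaptic adhesion genes at 20 CPM or more, whose median ratio was 0.636, and Adgrl3 met the mirrored rule. Robo2, a receptor of the guidance cue Slit, had 685, 541 and 541 CPM in the 3 untreated libraries, 475, 666 and 412 in the 3 constricted libraries and 168 and 149 in the 2 dilated libraries, 3.71-fold lower. Its paralogue Robo1 had 1684, 1669.6 and 1750.5 CPM untreated, 1793, 1847 and 1387 constricted and 2361 and 2219.8 dilated, higher in both dilated libraries than in any other library. Plxna4, a semaphorin receptor, had 231, 184 and 211 CPM untreated, 238, 249.5 and 203 constricted and 65.3 and 61.5 dilated. Nav3 (neuron navigator 3) had 401, 424 and 413 CPM untreated, 413, 506 and 325 constricted and 149 and 115 dilated. They were the 3 members among 33 axon guidance genes, with a median ratio of 0.855 beside 0.891 over the 7002 genes, and Srgap1 met the mirrored rule.

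Growth factor and patterning genes gave 15 members. Pdgfa, the A chain of platelet-derived growth factor, had 647, 614 and 715 CPM in the 3 untreated libraries, 637, 459.6 and 680.3 in the 3 constricted libraries and 282 and 279.7 in the 2 dilated libraries, 2.35-fold lower, and was the member among 4 PDGF and gap junction genes at 20 CPM or more, which had a median ratio of 0.461. Pdgfc and Pdgfd of the same family and the connexin Gja1 lay above the limit, Gja1 with 1082, 805 and 916 CPM untreated, 985, 971 and 952 constricted and 441 and 350.3 dilated. Hhip, which binds hedgehog ligands, had 244, 275 and 315 CPM untreated, 274, 250.4 and 243 constricted and 94.1 and 119.6 dilated. Wnt5b, a WNT ligand, had 174, 130.5 and 129 CPM untreated, 170.0, 116 and 72.0 constricted and 54.6 and 27.1 dilated. Nkd1, an inhibitor of WNT signalling, had 101, 114 and 123 CPM untreated, 116, 105 and 94.99 constricted and 36.9 and 36.1 dilated. Lrig3, which acts on growth factor receptors, had 242, 281 and 282 CPM untreated, 187, 212 and 239 constricted and 90.7 and 97.6 dilated. Wnt5b, Nkd1 and Lrig3 were 3 of 17 genes of the list of melanocyte inducing and WNT signalling genes at 20 CPM or more, whose median ratio was 0.650. Lrig1, of the same family as Lrig3, had 185, 198 and 210.2 CPM untreated, 172, 199 and 199.9 constricted and 59.6 and 83.0 dilated. Appl2, an endosomal adaptor, had 541, 644 and 605 CPM untreated, 531, 484 and 450.1 constricted and 219 and 168 dilated. In each of these genes both dilated libraries were below all 6 other libraries.

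Enzymes and transporters were the largest of the roles assigned, with 24 members and a median ratio of 0.368, whereas 68 members had no role. Tbxas1 (thromboxane A synthase) had 188, 184 and 181 CPM in the 3 untreated libraries, 162, 133 and 92.4 in the 3 constricted libraries and 39.3 and 31.1 in the 2 dilated libraries, 5.24-fold lower. Slc7a2, a carrier of cationic amino acids, had 309, 249 and 262 CPM untreated, 272, 281 and 253 constricted and 102 and 87.6 dilated. Dpyd, which degrades pyrimidines, had 198, 188 and 209 CPM untreated, 205, 244 and 162 constricted and 70.7 and 65.1 dilated. Car14, a membrane carbonic anhydrase, had 124.7, 126 and 121 CPM untreated, 121, 146 and 189 constricted and 27.3 and 35.7 dilated. Of 10 matrix, protease and glycosylation genes, B3glct, a glucosyltransferase of the endoplasmic reticulum, had 639, 610.4 and 628 CPM untreated, 635, 639 and 459 constricted and 237 and 198 dilated. Emilin3, an extracellular glycoprotein, had 117, 139 and 179 CPM untreated, 109, 79.8 and 202 constricted and 13.6 and 25.8 dilated, 7.34-fold lower. Col11a1, a fibrillar collagen chain, had 43.0, 27.7 and 39.7 CPM untreated, 67.8, 86.0 and 82.2 constricted and 9.58 and 10.0 dilated. Its constricted libraries were all above its untreated libraries. Among 8 cytoskeleton genes, the actin-binding Ablim3 had 185, 203 and 231 CPM untreated, 228, 175 and 154 constricted and 81.0 and 60.3 dilated. The 6 transcription and chromatin genes included Tef, an activator with a circadian rhythm in many tissues, with 92.9, 103 and 119 CPM untreated, 65.2, 101 and 152 constricted and 14.6 and 44.9 dilated, and Tet1, a 5-methylcytosine dioxygenase, with 58.6, 44.6 and 43.2 CPM untreated, 44.9, 35.01 and 31.5 constricted and 15.5 and 10.8 dilated. Both dilated libraries of Tef were below all others, and the lower of them was replicate 1. The 68 members without a role given here include AC129186.1, with 920.1, 968 and 965 CPM untreated, 824, 1157 and 804 constricted and 333 and 256 dilated, 4930435M08Rik, with 532, 625 and 659 CPM untreated, 509, 482 and 569 constricted and 225 and 246 dilated, AC159282.1, with 449, 347 and 362 CPM untreated, 384, 652 and 424 constricted and 112 and 80.0 dilated, and the ubiquitin ligase gene Park2, with 579, 533 and 547 CPM untreated, 508, 536 and 408 constricted and 256 and 212 dilated.

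**Figure D2:**
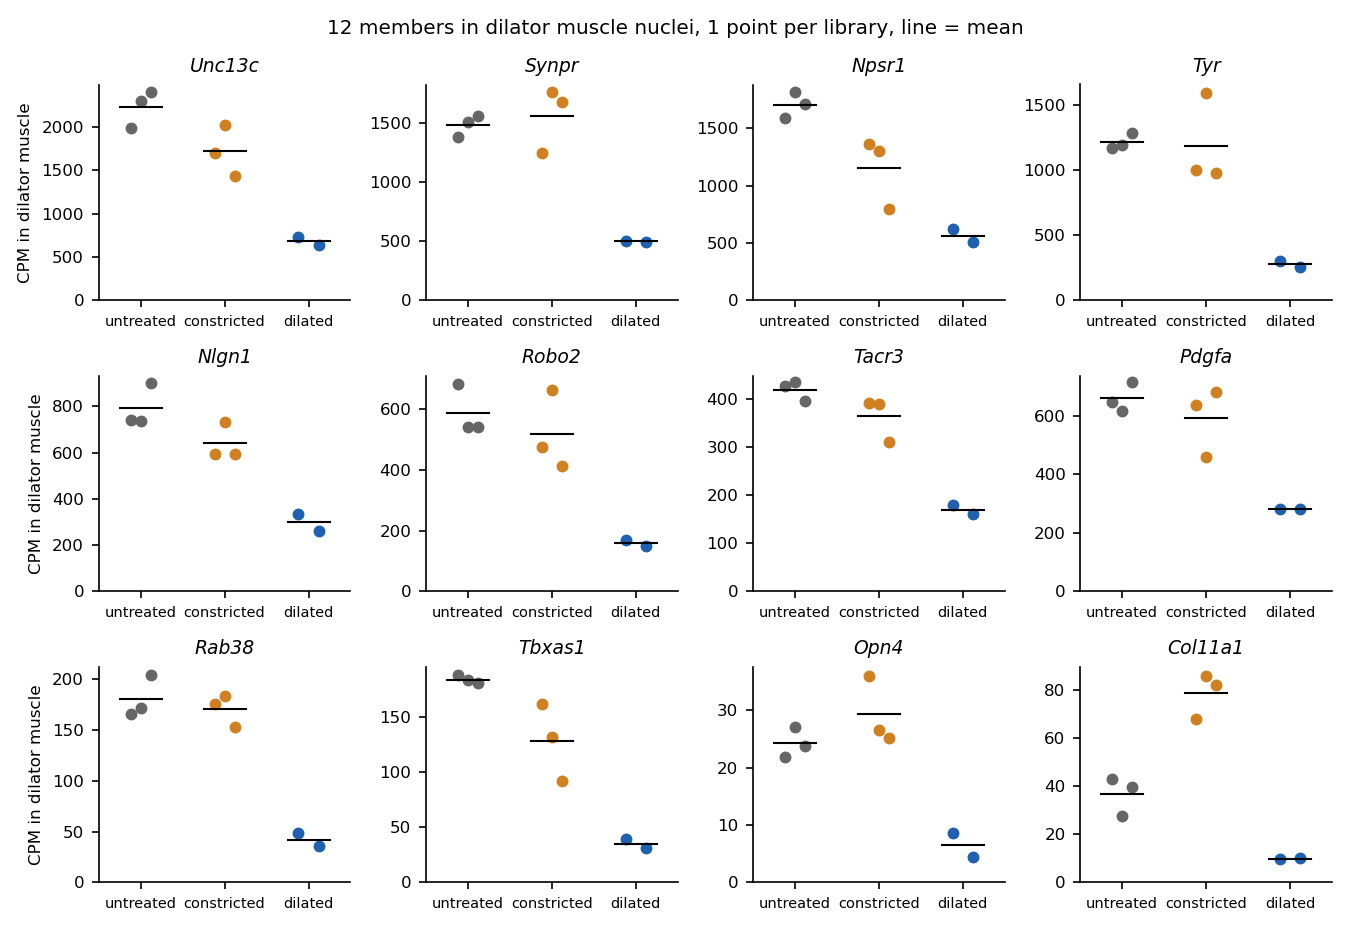
CPM in dilator muscle nuclei (y axis, from 0) of 12 members in the untreated, constricted and dilated libraries (x axis), with 1 point per library and the mean as a line. The dilated points lie below all others in each panel, for example at 299 and 253 CPM for Tyr against 1170.1 to 1284 untreated, and the constricted points of Col11a1, at 67.8 to 86.0 CPM, lie above its untreated points.

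The lower level of the set was spread over the dilator nuclei. The 170 members together took a median of 2.60, 2.61 and 2.70% of the UMIs of a nucleus in the untreated libraries, 2.40, 2.57 and 2.16% in the constricted libraries and 0.906 and 0.766% in the dilated libraries. In dilated replicates 1 and 2, 98.8 and 98.2% of nuclei were below the lowest 5th percentile of an untreated library (1.82%), against 3.09 to 5.00% of untreated nuclei and 5.85 to 21.2% of constricted nuclei. These shares are sums over the genes the rule chose and were not tested. Constricted replicate 3, with 21.2%, stood lowest of its condition. In sums over nuclei, fewer nuclei with a transcript and fewer transcripts per nucleus cannot be told apart. Per nucleus, the 95th percentile in the dilated libraries (1.54 and 1.57%) was below the 5th percentile in the untreated libraries (1.82 to 1.96%).

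**Figure D3:**
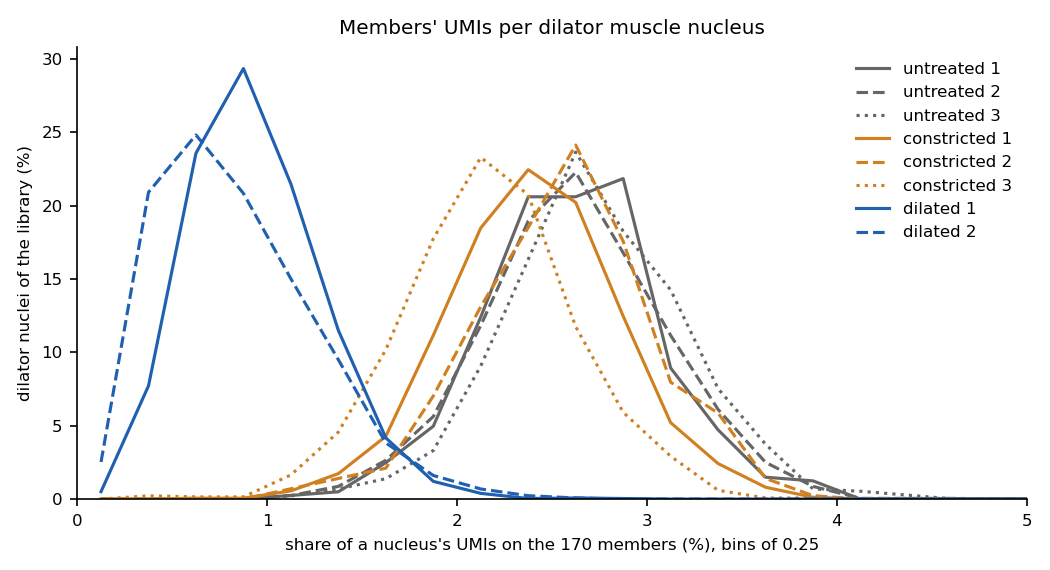
Share of a nucleus's UMIs that fell on the 170 members (x axis, %, bins of 0.25) against the percent of dilator muscle nuclei of the library in that bin (y axis), 1 line per library. The dilated libraries form a separate peak with medians of 0.906 and 0.766%, left of the constricted (2.16 to 2.57%) and untreated (2.60 to 2.70%) libraries.

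Constriction is the second treatment of the study and the constricted libraries were not used by the rule, although the untreated libraries were. By asking for high untreated values, the rule itself leans the members' comparison with the same untreated libraries toward lower constricted values. How much this adds to the differences below was not tested. Of 170 members, 0 were lower and 0 higher after constriction in dilator muscle with edgeR, where a call needs a log2 fold change of more than 0.6 in size and an adjusted p under 0.05. Of all 15395 genes tested, 0% were lower and 0.0065% higher. At an unadjusted p under 0.05 there were 31 members, 24 of them lower, which is 18.2% of members against 4.09% of all genes tested, and DESeq2 called 1 member, Col11a1. Col11a1 was also called without constricted replicate 1 and with no filter on low counts. The median log2 fold change of the members was -0.14, beside 0.01 over all genes. Counted by libraries, 36 of the 170 members had all 3 constricted libraries below all 3 untreated libraries, beside 5.83% of the 7002 genes. All 3 were above for 9 of the 170, beside 4.4% of the 7002 genes, a similar share from which nothing is read. The 9 were Sybu, Nckap5, Cd200, Pxdn, Npr3, Col11a1, Grb14, Il15 and Lrriq1. The members' ratio of constricted to untreated CPM ranged from 0.560 to 2.14. The lowest was that of Gm11734, with 48.0, 52.5 and 52.2 CPM untreated, 35.6, 24.4 and 25.6 constricted and 21.7 and 16.8 dilated, and the highest that of Col11a1 (log2 fold change 1.14, SE 0.18, edgeR adjusted p = 0.119). Cd200, an immune regulatory membrane protein, had 69.8, 61.6 and 80.0 CPM untreated, 99.3, 109 and 128 constricted and 28.04 and 28.7 dilated (log2 fold change 0.68, SE 0.16, edgeR adjusted p = 0.814). For 86 members the higher dilated library was at most 0.5 times the lowest constricted library, beside 1.61% of the 7002 genes. These counts use the dilated libraries of the rule and are descriptions.

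In untreated irises the members were expressed in other cell types as well. The highest mean CPM over the 10 cell types was in dilator muscle for 48 of the 170 members (28.2%), beside 6.87% of the 7002 genes, and in sphincter 2 for 22, iris PE for 18, stroma 2 for 16 and CBE for 16. It was in EC for 10 members and in leukocytes for 8. The level in dilator muscle was at least 2 times that of the next cell type for 6 members (3.53%, beside 0.457% of the 7002 genes), Il1rapl2, Cntn6, Cracr2a, Krt222, Mro and Ccdc33, and at least 5 times for none. Unc13c was highest in dilator muscle at 2226 ± 218 CPM (SD, n = 3) and sphincter 2 at 1610.2 ± 276, followed by the ciliary body cluster (CB) at 608 ± 20.9. Npsr1 was highest in iris PE at 1958 ± 458, dilator muscle at 1705 ± 115 and CBE at 1552 ± 235, whose ranges overlap, and CB at 1243 ± 41.3. Tyr was highest in stroma 1, which expresses Sox10 and Pax3 of melanocytes, at 2477 ± 85.1, then in iris PE at 1959 ± 132 and in dilator muscle at 1214 ± 61.1. Tacr3 was higher in sphincter 1 and sphincter 2, at 1050.5 ± 16.3 and 841 ± 34.7, than in dilator muscle at 419 ± 20.4, and Pdgfa was highest in dilator muscle at 659 ± 51.5. Cell types were clustered by the authors on the same counts, so no test between them is given. RNA free in the droplets can add to these levels. In leukocytes, which should not express these genes, Unc13c had 109.5 ± 104, Npsr1 236 ± 136, Synpr 156 ± 104 and Tyr 239 ± 110.4 CPM. Gene length had a median of 64.9 kb over 166 members found in the GENCODE vM21 annotation of GRCm38, beside 41.7 kb over 6948 of the 7002 genes, and 150 were protein coding.

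The members were then followed with dilation in the 9 other cell types, whose nuclei the rule did not use, in the same libraries. In sphincter 2, the sphincter cluster that also expresses Adra1a, 38 of the 116 members tested fell (32.8%), beside 1.4% of all 6691 genes tested, and 0 rose, beside 1.46%. The median log2 fold change of the members was -0.90, beside 0.01 over all genes, and 96.6% of members had a value below 0, beside 49.2% of all genes. The number of calls rested on single libraries, with 8 without dilated replicate 2, 12 without untreated replicate 3, 16 without untreated replicate 2, and it was 22 with DESeq2. Without the nuclei with shared barcodes it was 37.

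The roles were assigned to members after their values were seen and hold no other genes, so that their counts are descriptions of the members alone. By role, 10 of the 12 adhesion and axon guidance genes tested fell in sphincter 2, 6 of 8 vesicle and scaffold genes, 4 of 10 receptors and channels and 2 of 3 pigment genes. Among the other roles these were 3 of 13 growth factor and patterning genes, 3 of 9 matrix genes, 2 of 17 enzymes and transporters, 1 of 6 cytoskeleton genes and 0 of 5 transcription genes. The share was 32.8% over all members tested and 1.4% over all genes tested. In the gene lists that hold members and other genes alike, 6 of 29 synaptic adhesion genes tested fell in sphincter 2, 2 of 32 axon guidance genes, 2 of 25 genes of regulated exocytosis and 2 of 20 genes of melanosomes and melanin synthesis. All of these but Cntnap4, a synaptic adhesion gene, were members, so that the lists repeat calls already counted by role. Cadps rose among the exocytosis genes and Gpnmb among the melanosome genes. Robo2 had 504, 566 and 468 CPM in the 3 untreated libraries, 409, 715 and 494 in the 3 constricted libraries and 159 and 167 in the 2 dilated libraries (log2 fold change -1.57, SE 0.25, edgeR adjusted p = 2.62e-04). Nav3 had 1924, 1294 and 1491 CPM in the 3 untreated libraries, 1432, 1386 and 1275 in the 3 constricted libraries and 611 and 599.6 in the 2 dilated libraries (log2 fold change -1.27, SE 0.21, edgeR adjusted p = 2.75e-04). Constricted libraries of both overlapped the untreated ones, and the dilated libraries were lowest. Synpr had 907, 1323 and 1253 CPM untreated, 1006, 1624 and 1127 constricted and 529.7 and 559 dilated (log2 fold change -1.03, SE 0.23, edgeR adjusted p = 0.00782). Unc13c had 1292, 1763 and 1776 CPM untreated, 1211, 1400.2 and 903 constricted and 978 and 593 dilated (log2 fold change -0.98, SE 0.23, edgeR adjusted p = 0.0104). Sybu had 229, 256 and 304 CPM untreated, 354, 289 and 308 constricted and 85.2 and 98.8 dilated (log2 fold change -1.47, SE 0.26, edgeR adjusted p = 8.21e-04). For Unc13c, the higher dilated library exceeded the lowest constricted library. Tacr3 fell from 841 ± 34.7 CPM (SD, n = 3) to 537 and 289.6 (log2 fold change -0.96, SE 0.23, edgeR adjusted p = 0.0149), and AC129186.1 from 1258 ± 109 to 252 and 347 (log2 fold change -1.99, SE 0.24, edgeR adjusted p = 2.21e-06), the smallest adjusted p of the members. The 5 largest decreases were those of Acad12 (-2.60), Gm47469 (-2.49), Slc38a11 (-2.40), Tyr (-2.36) and Emilin3 (-2.19), all of them genes with mean untreated levels of 42.1 to 145.8 CPM in this cluster. In the same order they held 4, 4, 6, 15 and 7 UMIs over the 2 dilated libraries together, so that the sizes of these decreases rest on few molecules. The calls of 6 members were kept in every alternative fit tried, AC129186.1, Adarb2, Nav3, Robo2, Sybu and Tyr. In the fits without either dilated replicate that arm holds 1 library, which is assumed to vary as the other groups do.

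Markers of cell identity and free RNA are given beside this result. In sphincter 2, Adra1a had 247, 196 and 234 CPM untreated, 256, 144 and 97.1 constricted and 252 and 167 dilated, and Chrm3, the M3 muscarinic receptor of the sphincter, 659.7, 543 and 792 CPM untreated, 838, 787 and 705 constricted and 578 and 351 dilated. The summed dilator markers were 9966 to 11123 CPM untreated and 9774 to 10701 dilated. Most of that sum was Mylk, Myh11 and Acta2, and the paper also places Myh11 transcripts and smooth muscle actin in the sphincter. Untreated and dilated means were 5456 and 4531 CPM for Mylk, 2801 and 3469 for Myh11 and 1293 and 1460 for Acta2. The sum is therefore not particular to the dilator, and it joins changes in both directions. The summed sphincter markers were 2666 to 3328 CPM untreated and 1884 to 2245 dilated, so that the dilated libraries had the lower sphincter marker sums. The part of this in the members' decrease was not tested. Of the 38 members, 23 had an untreated level in sphincter 2 at or above that in dilator muscle, with a median of 118% of it, and 31 had a level above those in both leukocytes and EC. Here and below this compares means alone, and some margins lay within the spread of the libraries. Rab38, for example, had 177 ± 41.3 CPM in sphincter 2 against 169 ± 40.5 in EC. Tyr and Npsr1 were not among the 31, with 146 ± 38.0 and 173 ± 103 CPM in sphincter 2 against 239 ± 110.4 and 236 ± 136 in leukocytes, so that their levels in sphincter 2 were not above those of a cell type that should lack them. Nor were Cd200, Il1rapl2, Map2k6, Samd12 and Sntg1, which apart from Samd12 are in the counts by role above. Cd200 and Samd12 had their highest level of all cell types in EC, at 562.3 and 232.3 CPM. For such genes a level not above EC does not mark background. In leukocytes Tyr had 298, 307 and 111 CPM untreated, 334, 118 and 136 constricted and 84.8 and 106 dilated.

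In sphincter 1, which has the higher summed sphincter markers of both clusters, 3 of the 106 members tested fell (2.83%, beside 1.32% of 7112 genes) and 1 rose (0.943%, beside 0.633%), and the median log2 fold change was -0.08. Colgalt2, a collagen galactosyltransferase, had 102, 110.0 and 135 CPM untreated and 30.0 and 57.7 dilated (log2 fold change -1.37, SE 0.32, edgeR adjusted p = 0.022). Fat3, a giant cadherin, had 113, 102 and 133 CPM untreated and 51.8 and 53.1 dilated (log2 fold change -1.13, SE 0.27, edgeR adjusted p = 0.029). Sntg1 had 355, 368 and 419 CPM untreated and 172 and 185 dilated (log2 fold change -1.07, SE 0.23, edgeR adjusted p = 0.0121). Sybu rose, with 183, 189.8 and 187 CPM in the 3 untreated libraries, 125.1, 54.5 and 69.7 in the 3 constricted libraries and 335 and 339 in the 2 dilated libraries (log2 fold change 0.88, SE 0.23, edgeR adjusted p = 0.0413), and its constricted libraries were the lowest. This call was lost with DESeq2 and without any single untreated or dilated library. The count of members that fell was 0 without dilated replicate 1 or untreated replicate 3, and 1 without dilated replicate 2 or untreated replicate 2. The difference between the clusters was tested in a joint edgeR fit with a term for each library, added after the values were seen. Of 124 members tested, 22 had a dilation effect that differed between the sphincter clusters at an adjusted p under 0.05, beside 3.33% of 7719 genes. All 22 had the more negative change in sphincter 2, beside 1.45%. Sybu had the smallest adjusted p (difference of the log2 fold changes -2.37, SE 0.28, edgeR adjusted p = 1.83e-08), followed by Rab38 (difference of the log2 fold changes -2.25, SE 0.32, edgeR adjusted p = 1.46e-06) and Nlgn1 (difference of the log2 fold changes -1.57, SE 0.23, edgeR adjusted p = 1.84e-06). Rab38 had 139.8, 144 and 189 CPM untreated, 161, 109 and 123 constricted and 385 and 173 dilated in sphincter 1 and 219.9, 137 and 175 CPM untreated, 195, 188 and 160.4 constricted and 85.2 and 30.7 dilated in sphincter 2. Nlgn1 had 1441, 1153 and 1193 CPM untreated, 849, 1138 and 544 constricted and 1748 and 1475 dilated in sphincter 1 and 431, 556 and 574 CPM untreated, 419, 484 and 241 constricted and 311 and 160.1 dilated in sphincter 2. In both genes the dilated libraries of sphincter 1 were at or above the median untreated library, and those of sphincter 2 were below all untreated libraries. In sphincter 1 the 4 markers of iris PE and CBE summed to 80.6 to 246 CPM untreated, 194 to 329 constricted and 353 to 357 dilated, and Rab38 is a gene with a mean of 742 CPM in untreated iris PE. The 5 endothelial markers summed to 11.2 to 21.5 CPM untreated and 35.5 to 46.2 dilated. Ttn, the sarcomeric titin and a sphincter marker, had 2038, 1325 and 1687 CPM untreated, 1777, 3159 and 2468 constricted and 393 and 510 dilated in sphincter 1. The summed sphincter markers there overlapped, at 10237 to 12032 CPM untreated and 9791 to 11263 dilated. Untreated and dilated means were 3958 and 4587 CPM for Chrm3, 4497 and 4648 for Syt1 and 112 and 157 for Nptx2. They were 768 and 634 CPM for Rbfox3 and 70.0 and 49.1 for Ckm. Chrm2, counted here among the dilator markers, had 333, 274 and 338 CPM untreated, 326, 466 and 209 constricted and 49.1 and 46.2 dilated in sphincter 1. It fell there with dilation (log2 fold change -2.68, SE 0.32, edgeR adjusted p = 4.33e-05), and did not pass the test in sphincter 2 (log2 fold change -0.63, SE 0.31, edgeR adjusted p = 0.366). The part of these in the values of sphincter 1 and in the difference between the clusters was not tested. All 3 members that fell in sphincter 1 had an untreated level above those in both leukocytes and EC.

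**Figure D4:**
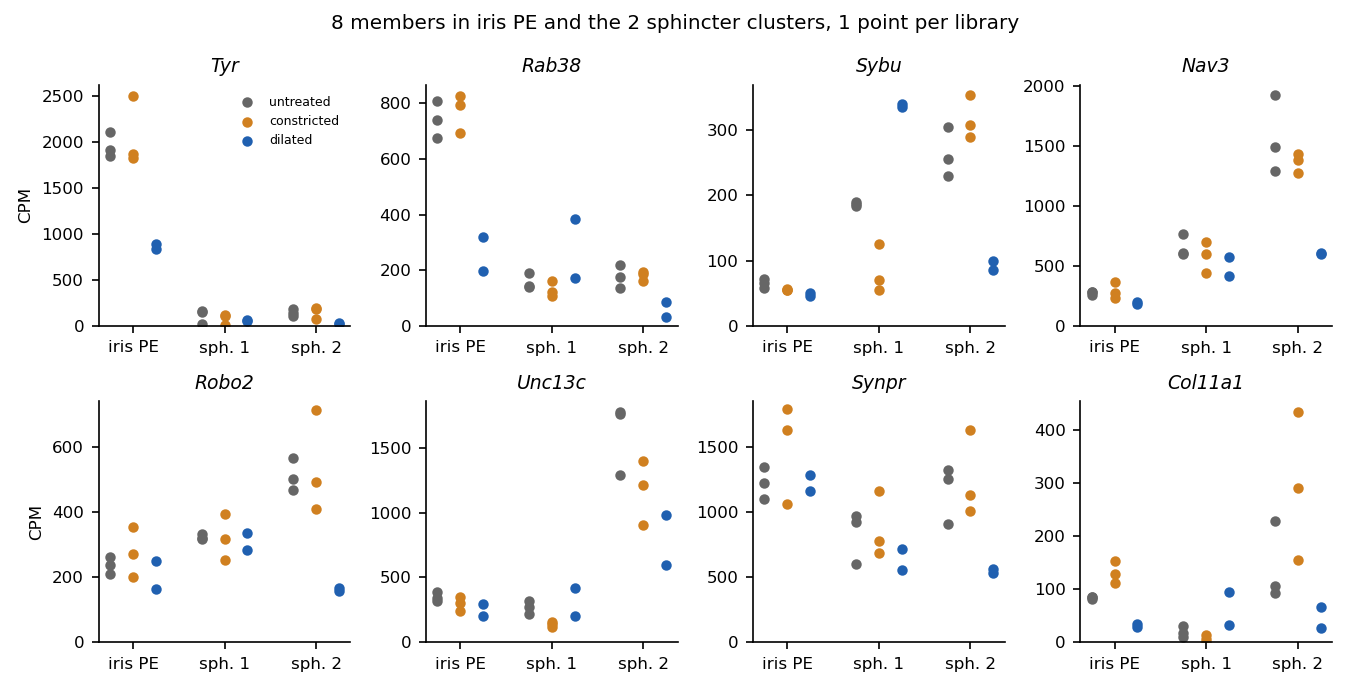
CPM (y axis, from 0) of 8 members in iris PE, sphincter 1 and sphincter 2 (x axis), with 1 point per library coloured by condition. In sphincter 2 the 2 dilated points lie below all untreated points in each of the 8 panels, at 85.2 and 98.8 CPM for Sybu, and the dilated points of Sybu in sphincter 1, at 335 and 339 CPM, lie above all others.

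In iris PE, the epithelial layer next to the dilator, 7 of 168 members tested fell (4.17%, beside 0.142% of 14128 genes) and 0 rose (beside 0.453%). The median log2 fold change was -0.35. The count was 13 with DESeq2, 4 without dilated replicate 1, 1 without dilated replicate 2, 3 without untreated replicate 2 and 2 without untreated replicate 3. The summed dilator markers were at 2924 to 3054 CPM untreated, 1985 to 2857 constricted and 1320 to 1728 dilated in iris PE. Most of this sum was Mylk, with means of 2827 CPM untreated and 1389 dilated. In the same order, the means of Adra1a were 15.4 and 14.8 CPM, of Nos1 6.1 and 5.3 and of Otx2 11.2 and 13.2. Those of Myh11 were 78.0 and 50.8 CPM, of Acta2 59.3 and 44.9 and of Chrm2 8.6 and 6.0. The dilated libraries of Myh11, at 54.9 and 46.6 CPM, were below its untreated libraries, at 77.1 to 79.4. The part of these markers in the result was not tested. Of the 7 members, 4 had an untreated level above those in both leukocytes and EC, and Plxna4, Npr3 and 9230020A06Rik did not. Plxna4 had its highest level of all cell types in leukocytes (539.7 CPM) and Npr3 in EC (133.2 CPM). For these genes the comparison does not mark background. Tyr had 1854, 1915 and 2107 CPM in the 3 untreated libraries, 1826, 2504 and 1870.1 in the 3 constricted libraries and 837 and 889 in the 2 dilated libraries (log2 fold change -1.14, SE 0.18, edgeR adjusted p = 0.0154). Rab38 had 676, 742 and 808 CPM in the 3 untreated libraries, 794, 828 and 695 in the 3 constricted libraries and 318 and 196 in the 2 dilated libraries (log2 fold change -1.49, SE 0.20, edgeR adjusted p = 0.00407). Dilated libraries of both were below all 6 other libraries. Col11a1 had 86.1, 81.2 and 84.8 CPM untreated, 129, 154 and 113 constricted and 34.1 and 29.1 dilated (log2 fold change -1.36, SE 0.18, edgeR adjusted p = 0.00384). Npr3, the clearance receptor of natriuretic peptides, had 76.9, 86.5 and 98.4 CPM untreated, 124, 171 and 167 constricted and 20.97 and 33.2 dilated (log2 fold change -1.69, SE 0.25, edgeR adjusted p = 0.00657). Plxna4 had 318, 286 and 322 CPM untreated, 352, 293 and 254 constricted and 174 and 124 dilated (log2 fold change -1.01, SE 0.17, edgeR adjusted p = 0.0215). For Col11a1 and Npr3 the constricted libraries were above the untreated ones, as in dilator muscle, where the share of such members was close to that over all genes. The other calls were AC159282.1 (log2 fold change -1.09, SE 0.20, edgeR adjusted p = 0.0319) and 9230020A06Rik (log2 fold change -3.39, SE 0.62, edgeR adjusted p = 0.0274), the latter at a mean of 10.8 CPM untreated. Npsr1 and Synpr, both abundant in iris PE, did not pass the test here. Npsr1 had 1433, 2163 and 2279 CPM untreated, 1854, 1592 and 1352 constricted and 1491 and 1431 dilated (log2 fold change -0.39, SE 0.21, edgeR adjusted p = 0.687). Synpr had 1097, 1224 and 1346 CPM untreated, 1061, 1629 and 1786 constricted and 1156 and 1282 dilated (log2 fold change 0.04, SE 0.22, edgeR adjusted p = 0.998).

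In stroma 1, where Tyr and Rab38 were most abundant, these pigment genes did not pass the test. Tyr had 2567, 2398 and 2466 CPM in the 3 untreated libraries, 2691, 3569 and 2573 in the 3 constricted libraries and 2729 and 2451 in the 2 dilated libraries (log2 fold change 0.08, SE 0.16, edgeR adjusted p = 0.885). Rab38 had 1067, 946 and 978 CPM in the 3 untreated libraries, 1302, 1136 and 915 in the 3 constricted libraries and 1206 and 840.3 in the 2 dilated libraries (log2 fold change 0.05, SE 0.17, edgeR adjusted p = 0.941), with overlapping dilated and untreated libraries. The difference of the dilation effect between iris PE and stroma 1, tested in a joint fit as above, was past the threshold for Rab38 (difference of the log2 fold changes -1.56, SE 0.17, edgeR adjusted p = 2.70e-08) and Tyr (difference of the log2 fold changes -1.23, SE 0.16, edgeR adjusted p = 2.66e-06), which had the more negative change in iris PE. It was past the threshold for 9 of 165 members tested, beside 1.53% of 12847 genes, 4 with the more negative change in iris PE, beside 0.724%, and 5 with the more negative change in stroma 1. Gpr143 had 249, 337 and 312 CPM untreated, 329, 359 and 354 constricted and 186 and 227 dilated in stroma 1 (log2 fold change -0.54, SE 0.19, edgeR adjusted p = 0.177) and 37.6, 54.9 and 60.4 CPM untreated, 38.8, 49.2 and 49.4 constricted and 31.5 and 44.2 dilated in iris PE (log2 fold change -0.46, SE 0.24, edgeR adjusted p = 0.637), and the difference was not past the threshold (difference of the log2 fold changes 0.09, SE 0.19, edgeR adjusted p = 0.912).

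Other members did pass in the stromal clusters. In stroma 1, 5 of 98 members tested fell (5.10%, beside 0.382% of 8911 genes) and 1 rose (1.02%, beside 0.786%). Car14 had 70.0, 119 and 102 CPM untreated, 96.1, 85.2 and 55.8 constricted and 37.6 and 26.7 dilated (log2 fold change -1.62, SE 0.30, edgeR adjusted p = 0.00944). Gria4 had 237, 255 and 285 CPM untreated, 190.4, 152 and 156 constricted and 146 and 93.4 dilated (log2 fold change -1.10, SE 0.19, edgeR adjusted p = 0.00665). Gucy2f, a guanylate cyclase known from photoreceptors, had 692, 682 and 714 CPM untreated, 628, 581 and 572 constricted and 431 and 418 dilated (log2 fold change -0.70, SE 0.15, edgeR adjusted p = 0.0253). Pstpip2, a membrane-bending protein, fell (log2 fold change -1.17, SE 0.20, edgeR adjusted p = 0.00665), as did Sord, sorbitol dehydrogenase (log2 fold change -1.18, SE 0.28, edgeR adjusted p = 0.0438). Nav3 rose from a low level, with 25.1, 21.96 and 29.0 CPM untreated, 42.9, 25.8 and 44.3 constricted and 52.9 and 78.4 dilated (log2 fold change 1.36, SE 0.28, edgeR adjusted p = 0.0209). In stroma 2, which expresses fibroblast markers, 6 of 144 members fell (4.17%, beside 0.383% of 12788 genes) and 0 rose (beside 1.35%). Rab30 had 218, 188 and 248 CPM untreated, 133, 164 and 179.7 constricted and 102 and 84.1 dilated (log2 fold change -1.18, SE 0.20, edgeR adjusted p = 0.0129). Lrp4, a low density lipoprotein receptor family member, had 227, 242 and 248 CPM untreated, 253, 234 and 221 constricted and 133 and 104 dilated (log2 fold change -0.97, SE 0.16, edgeR adjusted p = 0.0136). Ccdc68, a centriolar protein, had 174, 205 and 205 CPM untreated, 164, 233 and 232 constricted and 97.6 and 90.5 dilated (log2 fold change -1.02, SE 0.21, edgeR adjusted p = 0.0273). Nlgn1 (log2 fold change -1.18, SE 0.26, edgeR adjusted p = 0.041), the cytokine Il15 (log2 fold change -1.46, SE 0.28, edgeR adjusted p = 0.0221) and the kinase Map2k6 (log2 fold change -1.06, SE 0.23, edgeR adjusted p = 0.0444) also fell. The count in stroma 1 was 2 without dilated replicate 1 or untreated replicate 2 and 0 without dilated replicate 2 or untreated replicate 3. That in stroma 2 was 10 with DESeq2, 2 without untreated replicate 2 and 0 without dilated replicate 2 or untreated replicate 3. Median log2 fold changes were -0.49 in stroma 1 and -0.45 in stroma 2. An untreated level above those in both leukocytes and EC was found for 3 of the 5 members that fell in stroma 1 and 5 of the 6 in stroma 2. Pstpip2 and Il15, which were not among them, had their highest level of all cell types in leukocytes, at 519.5 and 105.9 CPM. For these genes the comparison does not mark background. In stroma 2 the summed endothelial markers were 133 to 152 CPM untreated, 93.7 to 215 constricted and 460 to 685 dilated. Most of that sum was Cldn5, a tight junction protein, with 99.1, 105 and 132 CPM untreated and 373 and 631 dilated. Untreated and dilated means were 5.93 and 40.9 CPM for Erg and 26.7 and 28.5 for Pecam1. They were 0.602 and 0.809 CPM for Cdh5 and 0.199 and 0 for Icam2. The part of such RNA in these counts was not tested.

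In CB, CBE, leukocytes and EC, 0 members were called with edgeR in either direction, of 110, 126, 29 and 19 tested, where 0, 0, 0.562 and 0% of all genes were called lower and 0.0665, 0.0122, 0.76 and 0% higher. At an unadjusted p under 0.05 there were 15, 18, 4 and 8 members, of which 15, 18, 3 and 7 were lower, beside 5.22, 4.32, 11.2 and 6.66% of all genes tested in either direction, and the median log2 fold changes were -0.29, -0.25, -0.52 and -0.73. DESeq2 also called 0 members in these 4 cell types. The members not tested in a cell type had too few UMIs there. In EC the median after constriction was -0.66 as well, against the same untreated libraries.

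**Figure D5:**
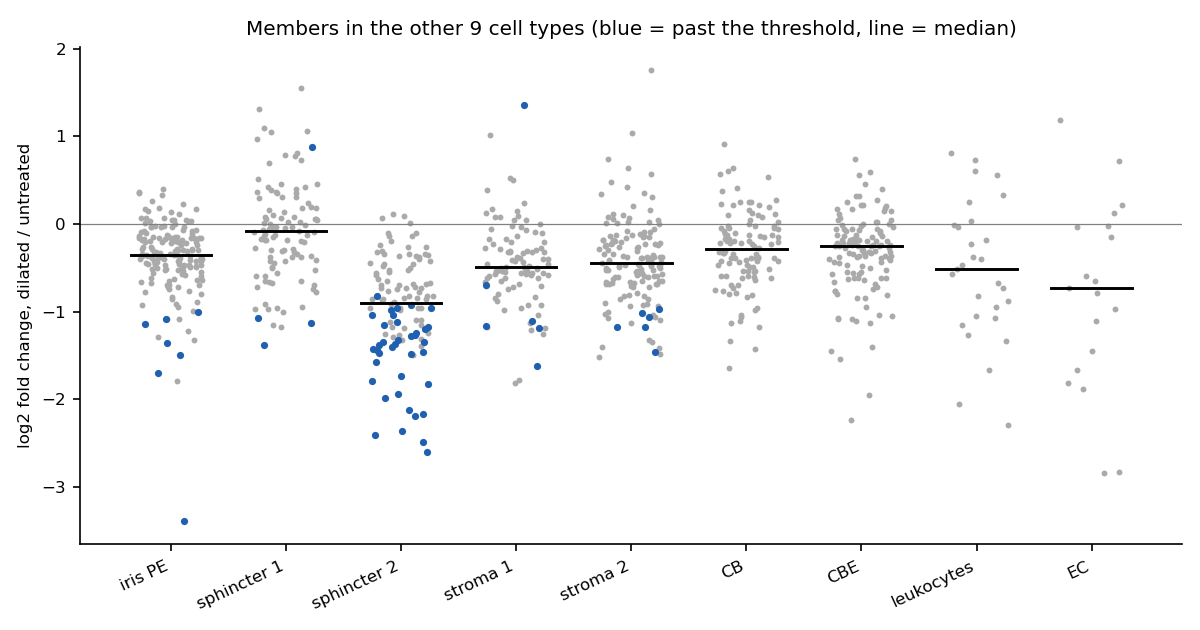
log2 fold change of dilated over untreated (y axis) of each member tested in 9 cell types (x axis), with calls in blue and the median as a line. Sphincter 2 holds 38 of the 61 calls and has a median of -0.90, against -0.08 in sphincter 1 and -0.35 in iris PE.

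After constriction, 2 calls among the members were made in the 9 other cell types, both in sphincter 2, where 0.0299% of genes were lower and 0.0598% higher. In iris PE 0.00708% of genes and in stroma 2 0.0156% were higher, none of them members, and 0% were called in either direction in the other types. Pcsk5, a proprotein convertase, fell, with 192, 308 and 393 CPM in the 3 untreated libraries, 87.7, 129.9 and 169 in the 3 constricted libraries and 119 and 129 in the 2 dilated libraries (log2 fold change -1.31, SE 0.26, edgeR adjusted p = 0.0214). Nckap5 rose, with 36.6, 43.7 and 22.2 CPM in the 3 untreated libraries, 101, 166 and 97.1 in the 3 constricted libraries and 33.3 and 10.2 in the 2 dilated libraries (log2 fold change 1.84, SE 0.35, edgeR adjusted p = 0.0214). Pcsk5 also fell with dilation in this cluster (log2 fold change -1.28, SE 0.28, edgeR adjusted p = 0.00782), against the same untreated libraries. In dilator muscle Nckap5 had 185, 144 and 148 CPM untreated, 222, 261 and 185 constricted and 52.7 and 37.9 dilated (log2 fold change 0.51, SE 0.15, edgeR adjusted p = 1). Both calls were lost with DESeq2, without untreated replicate 2, without untreated replicate 3 and without constricted replicate 2, and that of Pcsk5 also without constricted replicate 1.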

How the data were processed

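Single nuclei of 8 iris libraries (3 untreated, 3 constricted, 2 dilated, each a separate pool of irises) were sequenced with the Chromium 3′ kit. The authors aligned reads to mm10 and counted UMIs over exons and introns with Cell Ranger 3.1.0, and the deposited tables hold these raw counts for nuclei that had passed their filters on mitochondrial content and transcripts, with the cell types they assigned after clustering in Seurat. The deposited mitochondrial percent of each nucleus was computed by the authors and was used here only to describe libraries. No doublet step is given in the sources used here, and none was added.

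For each library, the UMI counts of all nuclei of a cell type were added up. In each cell type 1 edgeR 4.0.16 quasi-likelihood fit (R 4.3.3, TMM, filterByExpr, two-sided) was made on all 8 libraries, and p-values were adjusted over all genes tested by the Benjamini-Hochberg method. Calls needed an absolute log2 fold change over 0.6 and an adjusted p under 0.05. SEs are the coefficient divided by the square root of F. The scripts were tested on simulated counts. DESeq2 1.42.0, other normalizations, filters and blocks, and leaving out each library were alternatives. The tests of differences between cell types and the exclusion of shared barcodes were added after the data were seen. Nuclei were thinned to 1000 UMIs for shares. CPM was computed in Python 3.11.15.

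The members, gene lists and markers were chosen with earlier results of these data known, and roles were assigned after the values were seen. The genes named were the 30 members with the highest untreated CPM, the 10 with the lowest ratio, the 5 nearest to the limit on each side, members in a list, up to 4 other genes per list, and members called in another cell type, with the 5 largest changes where more than 10 were called. Vsnl1, Tacr1, Ankrd27, Tef, Cd200, Pxdn, Cntn6, Gm11734, Tet1, Krt222, Grb14, Ccdc33, Opn4, Mro and Lrriq1 were named outside this rule after their values were seen. Promoters are from RefSeq. Processing batches were not assigned to libraries in the sources used here.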

Additional observations from a re-analysis of the deposited data

Results flagged for a closer look

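The effect of dilation differed between cell types for several members, by the test of the difference itself in a joint edgeR fit with a term for each library. Between the sphincter clusters it differed at an adjusted p under 0.05 for 22 members. The difference of log2 fold changes, sphincter 2 minus sphincter 1, was -2.37 for Sybu, -2.25 for Rab38, -1.57 for Nlgn1, -1.86 for Adarb2, which codes for an RNA-binding protein of the adenosine deaminase family, and -1.52 for Robo2. Untreated Rab38 was at 177 ± 41.3 CPM in sphincter 2 and 157 ± 27.2 in sphincter 1, beside 169 ± 40.5 in EC. Markers of iris PE and CBE were higher in dilated sphincter 1, as given above, and their part in this difference was not tested.

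Between iris PE and stroma 1 it differed for 9 members. The difference, iris PE minus stroma 1, was -1.56 for Rab38, -1.23 for Tyr and -1.86 for Nav3, and it was 1.25 for Gria4 and 1.74 for Car14. The log2 fold change of Nav3 with dilation was 1.36 in stroma 1 and -1.27 in sphincter 2, each past the threshold in its own cell type, and the difference between these 2 cell types was not tested.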

How the results depend on the processing

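Of 170 members, 69 met a ratio of at most 0.4, 365 genes met one of at most 0.6, and 94 met the rule with TMM-scaled CPM. Leaving out 1 untreated or dilated library, which can only add genes, gave 192 to 405, the highest without dilated replicate 1. Calls with dilation over the 9 other cell types numbered 61. They were 109 with no filter on low counts, 120 with the series of library numbers as a block, and 14 to 68 without 1 library: 40 without dilated replicate 1, 15 without dilated replicate 2, 24 without untreated replicate 2 and 14 without untreated replicate 3. Of these calls 38 were decreases in sphincter 2, with 22 by DESeq2 and 8 to 41 without 1 library. With the replicate number as a block (replicate block), which is not a pairing in the labels, there were 76 calls, 41 in sphincter 2. In dilator muscle, deviations of log2 CPM from the group mean correlated at 0.184, 0.0102 and 0.297 between same-numbered untreated and constricted libraries. Between differently numbered ones the values ran from -0.267 to 0.140. Over replicates 1 and 2, same-numbered libraries gave 0.195 for untreated and dilated and 0.346 for constricted and dilated. Differently numbered ones there must give the same values with a minus sign, since 2 deviations from their mean are equal and opposite. Deviations from a group mean sum to 0, so that values for same and different numbers are not independent. After constriction the 0 calls in dilator muscle became 1 with DESeq2, with no filter and with the replicate block, and 0 to 1 without 1 library, in each case Col11a1. The 2 calls in other cell types became 6 with DESeq2, 21 with no filter, 8 with the replicate block, 11 with the series block, and 0 to 8 without 1 library. The cause of these shifts was not tested. None of the 63 single member calls changed sign under an alternative that gave it a value, which was 62 of them without untreated replicate 2 or without untreated replicate 3. A lone dilated library is assumed to vary as the other groups do. Of the 63, 42 passed with DESeq2, 12 without dilated replicate 2, and 6 under every alternative.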
